A study of Mus musculus with 8 samples.

Results

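The 33 genes described here mark the cells of brain vessels, and were chosen by name as known markers of endothelium and mural cells, not by a threshold on their values. All 33 were found among the 55416 genes of the count table. They were sorted by known role into 23 endothelial genes, 7 pericyte genes and 3 smooth muscle genes. The libraries came from cerebral cortex, with 4 libraries from mice with 1 Ago2 allele that encodes the L192P substitution (L192P) and 4 libraries from wildtype mice (WT). Ago2 encodes Argonaute 2, which is loaded with a miRNA and represses the mRNAs that the miRNA pairs with. The allele was made in zygotes of a C57BL/6JUke strain with CRISPR/Cas, the founders were crossed to C57/Bl6 mice, and heterozygotes were bred with WT animals. It is in the germline, so vessel cells and all other cells of an L192P animal carry it, and the methods number the residue as L193P in the mouse protein. No treatment is named for either genotype. Age, sex and the number of founder lines are not given in the sources used here, nor is it stated what a replicate number stands for, so the p-values measure the spread between these libraries.

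Capillaries of the cortex are lined by endothelial cells that are sealed by tight junctions and carry transporters for glucose, lipids and drugs, which together form the blood-brain barrier. Pericytes share the basement membrane of the capillary and help to keep the barrier, and smooth muscle cells wrap the arterioles and set their width. Growth factors from neurons and glia, above all VEGF-A, act on receptors of the endothelium, and angiopoietin, Notch, Wnt and PDGF signals tie the vessel cells to each other. In bulk tissue, fewer cells of a type and less RNA per cell cannot be told apart.

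Library totals ran from 20396357 to 43575900 counts. Of the 33 genes, 32 passed the filter on low counts and entered the test over 18627 genes. The exception was Tagln, which had between 1.17 and 11.5 normalized counts (counts divided by the size factor of the library). Over all tested genes 253 (1.36%) passed a DESeq2 adjusted p (Benjamini-Hochberg) of 0.05, of which 147 (0.789%) were higher and 106 (0.569%) lower in L192P, so 58.1% were higher. With total-count size factors the split was 168 higher and 64 lower, or 72.4% higher. Both libraries numbered 1 stood apart from the other 6 in both genotypes. They had at most 1.82 normalized counts of Xist, the RNA of the inactive X chromosome, where the other 6 had 5185 to 7257. Results that rest on these libraries are given with and without them, or with the replicate number as a block, because same-numbered libraries of both genotypes deviated together.

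No vessel gene passed this threshold between L192P and WT. DESeq2 called 0 of the 32 tested genes, beside 1.36% of all tested genes, and 0 had an unadjusted p under 0.05. The edgeR quasi-likelihood test also called 0 of 32, beside 0.314% of all tested genes, and 0 had an unadjusted p under 0.05. With limma-voom 0 vessel genes were called, beside 45 over all genes. At such low shares, 0 of 32 does not set the vessel genes apart. Adjusted p-values ranged from 0.529 to 0.998. The log2 fold changes of L192P over WT ran from -0.46 for Higd1b to 0.69 for Vwf, with 18 above 0 and 15 below, and their median was 0.05, beside 0.00191 for all tested genes. The 95% intervals of this fit, with genotype as its only term, give the differences that it could not resolve. For 12 genes (Ocln, Tjp1, Eng, Ramp2, Slc2a1, Slco1c1, Abcg2, Mfsd2a, Bsg, Itm2a, Pdgfrb and Notch3) the interval lay within 1.5-fold in either direction. For the other 21 it held a difference of 1.5-fold or more. With the replicate number as a block the intervals of 15 genes lay within 1.5-fold, Flt1, Rgs5 and Vtn in addition, and those of 18 did not. The median standard error was 0.28 for the vessel genes (0.239 with the block) and 0.13 for all tested genes. The groups of 4 normalized counts did not overlap for 1 vessel gene, Higd1b, which is to be read beside 5.97% of all tested genes.

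**Figure D1:**
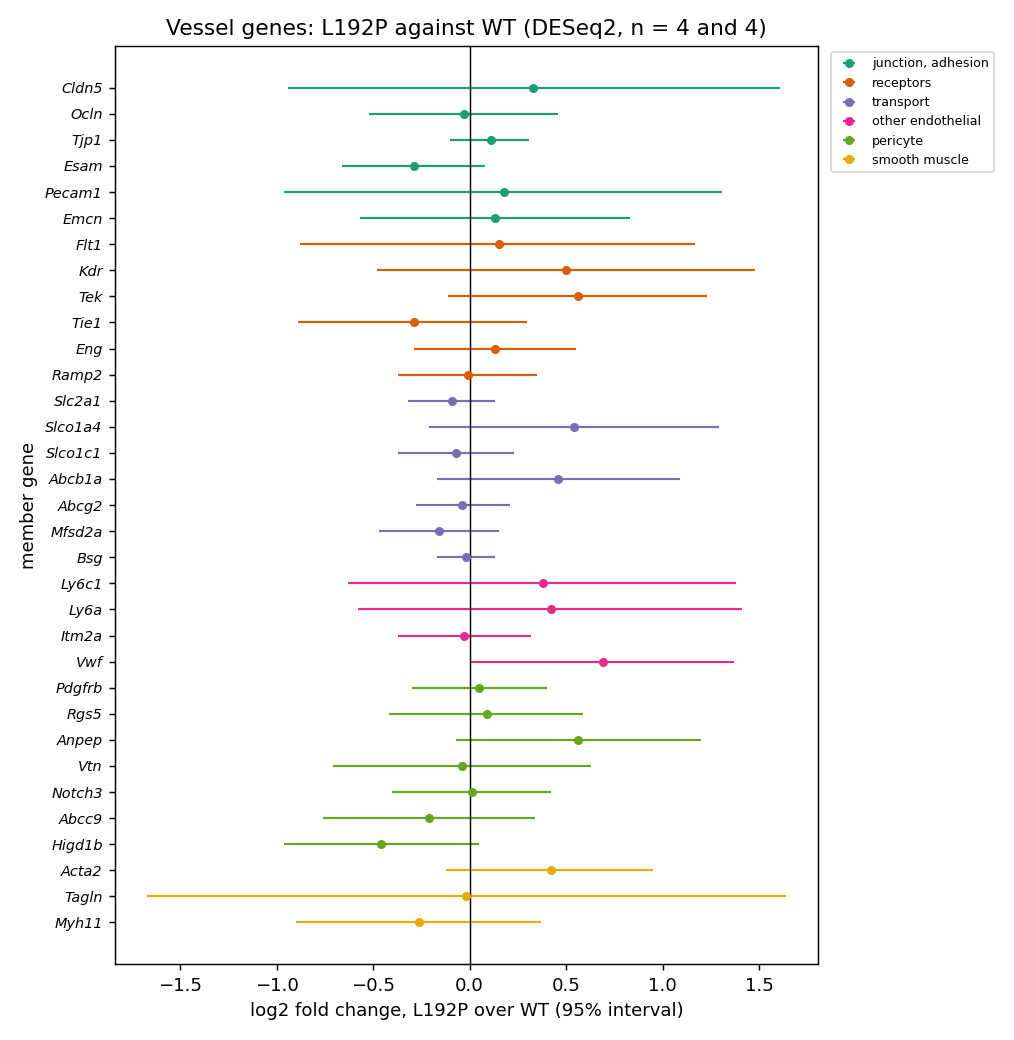
Log2 fold change of L192P over WT (x axis) for the 33 vessel genes (y axis), from DESeq2 with 4 libraries a genotype. Points are estimates, bars are 95% intervals and colours are role classes. Estimates run from -0.46 (Higd1b) to 0.69 (Vwf), and the bars of Cldn5, Pecam1, Flt1 and Tagln are among the wide ones. Tagln is drawn although it did not pass the filter on low counts.

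Many vessel genes were low in the replicate 1 libraries of both genotypes. The replicate 1 libraries of L192P and WT were the lowest pair of the 8 for 22 of the 33 genes, which comprised 17 of 23 endothelial genes, 5 of 7 pericyte genes and 0 of 3 smooth muscle genes. The same held for 1843 of all tested genes (9.89%). Both replicate 1 libraries were the highest pair for 0 vessel genes, beside 8.86% of all tested genes. The mean of the other 6 libraries exceeded the mean of the replicate 1 libraries by a median of 1.72-fold for endothelial genes and 1.64-fold for pericyte genes, where the median of all tested genes was 1.0. It was 4.3-fold for Cldn5, 2.76-fold for Pecam1, 2.65-fold for Flt1 and Ly6c1, and 2.57-fold for Ly6a. It was 1.13-fold for Bsg and 1.08-fold for Abcg2. These folds describe libraries that were singled out by their number after values were seen, and no test was made of them.

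**Figure D2:**
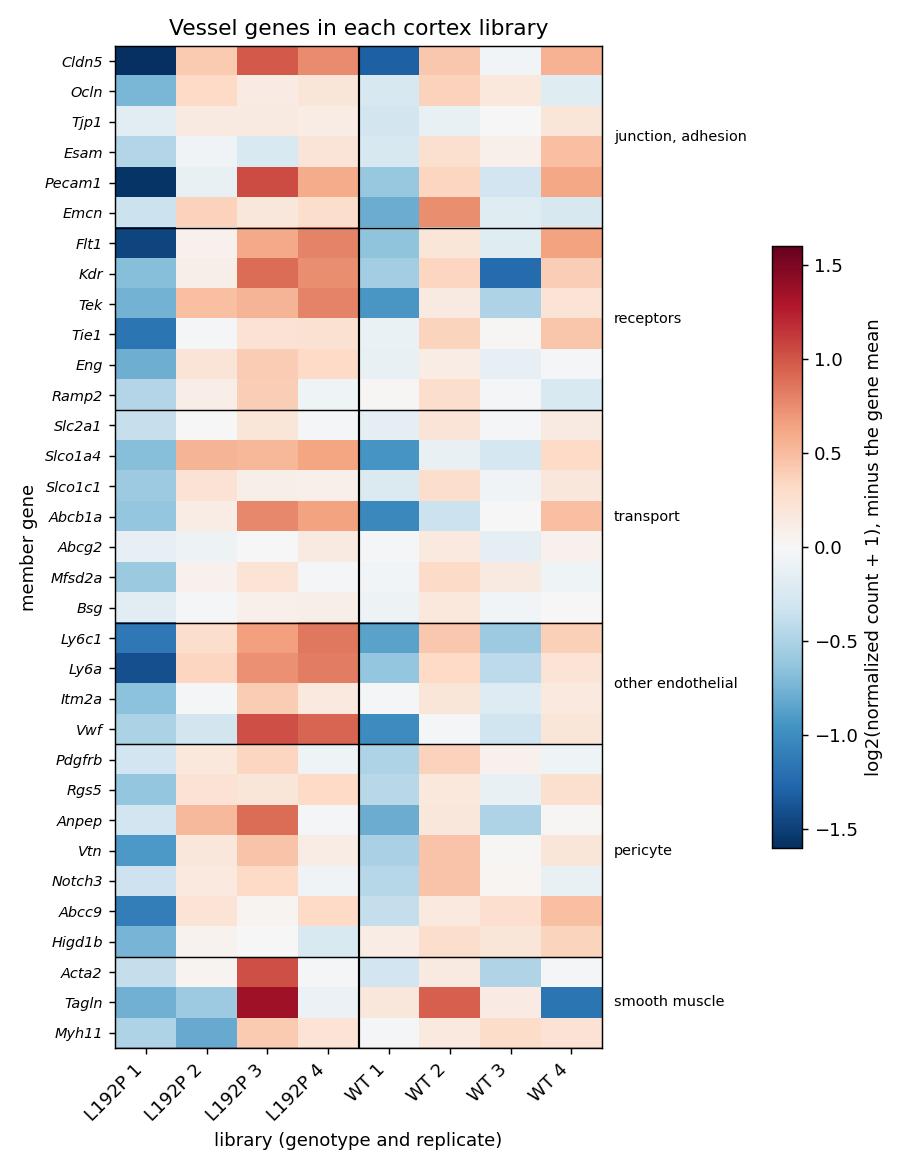
Level of each vessel gene (y axis, grouped by role) in each of the 8 libraries (x axis), as log2 of the normalized count plus 1 minus the mean of the gene over libraries. Red is above and blue below that mean. The columns of L192P 1 and WT 1 are blue for most endothelial and pericyte genes, and the L192P 3 column is the highest for 12 of the 33 genes.

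The tight junction and adhesion genes comprised Cldn5 (claudin-5, the main claudin of the barrier), Ocln (occludin), Tjp1 (ZO-1, the scaffold under the junction), Esam and Pecam1 (adhesion proteins of endothelial contacts) and Emcn (endomucin, a sialomucin of capillaries and veins). Tjp1, a gene that other brain cells also use, had the highest level of these per kilobase of exon (216.7 normalized counts per kilobase over all libraries), and Ocln (8.37) and Emcn (5.15) were low. Tjp1 (GRCm39 chromosome 7, 64945898 to 65177529) had 1502, 1890, 1878 and 1851 normalized counts in L192P replicates 1 to 4 and 1394, 1575, 1701 and 1949 in WT. The genotypes overlapped, the replicate 1 libraries were the lowest of each, and the log2 fold change was 0.11 (SE 0.11, DESeq2 adjusted p = 0.879). Esam (chromosome 9, 37439344 to 37449615) had 101.8, 136.6, 119.9 and 162.9 normalized counts in L192P and 118.4, 170.0, 149.9 and 197.8 in WT. Each L192P library lay below the WT library of the same number, yet the ranges overlapped, and DESeq2 gave -0.29 on the log2 scale (SE 0.19, adjusted p = 0.708). Cldn5, which is given because it varied most among the tested endothelial genes, had 35.5, 167.3, 247.9 and 213.2 normalized counts in L192P and 50.08, 170.0, 121.7 and 185.0 in WT. Its highest library was 6.98 times its lowest, and the interval of the difference between genotypes ran from -0.94 to 1.61 on the log2 scale (log2 fold change 0.33, DESeq2 adjusted p = 0.961).

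Pecam1 ranged from 25.2 to 159.1 normalized counts, with the lowest and the highest value both in L192P. Its difference of 0.18 on the log2 scale (SE 0.58) turned to -0.03 with the replicate block and to -0.21 without L192P replicate 3. Emcn (0.13, SE 0.36) and Ocln (-0.03, SE 0.25) likewise had ranges that overlapped between genotypes.

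Receptors and signalling proteins of the endothelium comprised Flt1 and Kdr (the VEGF receptors 1 and 2), Tek and Tie1 (the angiopoietin receptor Tie2 and its partner), Eng (endoglin, a co-receptor for TGF-beta family ligands) and Ramp2 (a partner of the adrenomedullin receptor). Tek (chromosome 4, 94627291 to 94763224) had 28.0, 67.1, 70.3 and 83.8 normalized counts in L192P and 24.6, 53.1, 33.7 and 56.2 in WT. Each L192P library was above the WT library of the same number, but the ranges overlapped, and the log2 fold change was 0.56 (SE 0.34, DESeq2 adjusted p = 0.662). For Tie1 (chromosome 4, 118328385 to 118347261) the counts were 19.6, 44.4, 53.0 and 53.9 in L192P and 41.9, 58.2, 45.6 and 62.1 in WT. L192P replicate 1 was below the other 7, and the estimate of -0.29 (SE 0.31, DESeq2 adjusted p = 0.883) was -0.05 when that library was left out. Ramp2, which had the highest level per kilobase of this class (44.8), had 126.1, 188.9, 230.6 and 166.5 normalized counts in L192P and 177.6, 213.5, 170.5 and 147.5 in WT. Its estimate was near 0 (-0.01, SE 0.18, DESeq2 adjusted p = 0.998), and an exon of Vps25 overlaps it on the same strand. Flt1 (0.15, SE 0.52), Kdr (0.50, SE 0.50) and Eng (0.13, SE 0.21) were below their own mean in both replicate 1 libraries.

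Many endothelial genes are driven by ETS family transcription factors, which bind a GGAA core. The promoters of the 4 receptor genes in which the 6 letters GGAAGT (on either strand, hence also ACTTCC) occurred are shown. All 4 genes were below their own mean in both replicate 1 libraries. That does not set them apart, since Tek, whose promoter held no GGAAGT, was lowest in both replicate 1 libraries too (2.31-fold below the rest). A link between the motif and these levels was not tested. Both the motif and the 4 genes were chosen after values were seen. Each line is the 250 bases before the RefSeq start of transcription on GRCm38.p6, written 5′ to 3′ on the strand of the gene, with the motif in capitals. They lie at chr5:147726012-147726261 (Flt1, minus strand), chr5:75978456-75978705 (Kdr, minus strand), chr4:118489850-118490099 (Tie1, minus strand) and chr2:32646345-32646594 (Eng, plus strand).
Flt1: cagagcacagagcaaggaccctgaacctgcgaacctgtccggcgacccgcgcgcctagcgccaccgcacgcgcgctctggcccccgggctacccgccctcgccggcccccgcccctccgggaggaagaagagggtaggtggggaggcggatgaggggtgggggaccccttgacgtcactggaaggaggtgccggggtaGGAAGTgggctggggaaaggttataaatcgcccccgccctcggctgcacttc
Kdr: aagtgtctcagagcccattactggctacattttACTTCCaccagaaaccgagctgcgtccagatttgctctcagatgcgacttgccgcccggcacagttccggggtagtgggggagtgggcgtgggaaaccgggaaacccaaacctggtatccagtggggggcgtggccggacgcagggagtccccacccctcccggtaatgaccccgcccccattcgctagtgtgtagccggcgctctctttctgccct
Tie1: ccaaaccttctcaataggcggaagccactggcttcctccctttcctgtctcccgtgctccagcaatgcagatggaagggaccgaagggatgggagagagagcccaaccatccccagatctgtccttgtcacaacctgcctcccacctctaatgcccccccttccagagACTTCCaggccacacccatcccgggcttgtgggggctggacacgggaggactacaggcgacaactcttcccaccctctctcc
Eng: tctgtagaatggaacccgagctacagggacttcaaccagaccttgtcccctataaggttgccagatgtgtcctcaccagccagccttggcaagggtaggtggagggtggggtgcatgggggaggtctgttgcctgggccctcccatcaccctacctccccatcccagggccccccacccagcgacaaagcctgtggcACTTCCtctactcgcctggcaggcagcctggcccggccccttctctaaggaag
Of the 33 genes, 23 had a promoter entry in the RefSeq table, with 27 windows in all because some have more than 1 start. GGAAGT was in 9 of the 27 windows, which belong to 8 genes, the other 4 being Abcg2, Anpep, Ly6c1 and Slco1c1. It was in 19.7% of all 32851 promoter windows of this length. Each of the 4 windows held the motif 1 time, at 52 bases (Flt1), 217 bases (Kdr), 82 bases (Tie1) and 53 bases (Eng) before the start. The CArG box, the serum response factor motif of smooth muscle genes (CC, 6 letters that are A or T, then GG), was in 0 of the 27 windows and in 1.47% of all windows. Of the smooth muscle genes only Acta2 had an entry, so this 0 cannot show whether such genes hold the motif. A match of letters is not a bound site, and these windows were not measured here. Bsg, Esam, Higd1b, Ly6a, Myh11, Pdgfrb, Pecam1, Ramp2, Tagln and Vwf had no entry.

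The transport genes comprised Slc2a1 (GLUT1, the glucose transporter), Slco1a4 and Slco1c1 (organic anion transporters, the latter for thyroid hormone), Abcb1a (P-glycoprotein) and Abcg2 (efflux pumps for drugs), Mfsd2a (a carrier of lysophospholipids with docosahexaenoic acid) and Bsg (basigin, a chaperone of lactate carriers that most cells express). Bsg (chromosome 10, 79540143 to 79547821) had 3049 normalized counts per kilobase, far above any other vessel gene. In L192P it had 7432, 8286, 8921 and 8983 normalized counts, and in WT 7990, 9466, 8207 and 8446. The genotypes overlapped, and the estimate was -0.02 (SE 0.08, DESeq2 adjusted p = 0.986), with a 95% interval of 0.887-fold to 1.1-fold. Slc2a1, Slco1c1, Abcg2 and Mfsd2a had estimates of -0.09, -0.07, -0.04 and -0.16, and their intervals also lay within 1.5-fold. Abcb1a (chromosome 5, 8710022 to 8798575) had 48.6, 81.9, 129.1 and 118.6 normalized counts in L192P and 36.4, 59.3, 75.0 and 105.4 in WT. Again each L192P library was above its same-numbered WT library while the ranges overlapped (log2 fold change 0.46, SE 0.32, DESeq2 adjusted p = 0.753).

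Slco1a4 was the only vessel gene called under any of the 17 alternative settings, and it is described for that reason. It had 127.1, 299.3, 297.5 and 318.6 normalized counts in L192P replicates 1 to 4 and 105.6, 189.2, 168.4 and 255.2 in WT (chromosome 6, 141751165 to 141802036). L192P was higher in 4 of 4 same-numbered pairs, and among the libraries numbered 2 to 4 every L192P value lay above every WT value. Over all 8 libraries the ranges overlapped, the log2 fold change was 0.54 (SE 0.38, DESeq2 adjusted p = 0.76), and exact permutation of the 8 values (two-sided) gave p = 0.171, where the smallest p that 4 against 4 allows is 0.0286. With the replicate number as a block, DESeq2 gave 0.52 with an adjusted p of 0.0279. That was 1 of the 25 vessel genes with an adjusted p in that fit, in which 4.25% of all tested genes were called. On the 6 libraries without replicate 1 the estimate was 0.58 with a DESeq2 adjusted p of 0.018, again 1 of 32 vessel genes, beside 3.46% of all tested genes. Leaving out L192P replicate 1 alone gave 0.77 with a DESeq2 adjusted p of 0.0192. In the 6 libraries 23 of the 33 estimates were above 0 and their median was 0.12. The share above 0 and the median of all genes in that fit are not given here, so no shift of the vessel genes can be read from this. Leaving out 1 library gave medians of the vessel genes from -0.05 (without L192P replicate 3) to 0.19 (without WT replicate 2).

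The other endothelial markers were Ly6c1 and Ly6a (surface proteins of mouse brain endothelium), Itm2a (a membrane protein of endothelial cells) and Vwf (von Willebrand factor, a clotting protein of larger vessels). Vwf (chromosome 6, 125523737 to 125663642) had 43.0, 50.1, 126.8 and 117.4 normalized counts in L192P and 30.1, 59.9, 48.9 and 70.2 in WT. L192P replicates 3 and 4 were high, and the other 2 lay within the WT range. It had the smallest unadjusted p of the vessel genes, 0.0501 from DESeq2, with a log2 fold change of 0.69 (SE 0.35, adjusted p = 0.529) that was 0.42 without L192P replicate 3. Itm2a (chromosome X, 106418945 to 106447419) had the highest level per kilobase of this class (69.9). Its counts were 257.9, 396.0, 539.6 and 451.6 in L192P and 400.7, 465.5, 350.9 and 454.2 in WT, so that L192P held both the lowest and the highest library. The estimate was -0.03 (SE 0.18, DESeq2 adjusted p = 0.993). Ly6c1 (0.38, SE 0.51) and Ly6a (0.42, SE 0.51) spread over more than 4-fold between libraries, with L192P replicate 1 the lowest and L192P replicate 4 the highest for both.

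Pericyte genes comprised Pdgfrb (the receptor for PDGF-B), Rgs5 (a regulator of G protein signalling), Anpep (aminopeptidase N, CD13), Vtn (vitronectin), Notch3, Abcc9 (the SUR2 subunit of a potassium channel) and Higd1b. Vtn (chromosome 11, 78388717 to 78393156) had 212.6 normalized counts per kilobase, and Rgs5 had 207.9. The counts of Vtn were 341.9, 730.6, 883.2 and 699.6 in L192P and 450.7, 888.0, 651.8 and 738.7 in WT. The replicate 1 libraries were the lowest of either genotype, and the difference was -0.04 (SE 0.34, DESeq2 adjusted p = 0.995). Higd1b (chromosome 11, 102726404 to 102735661) had 25.2, 44.4, 42.7 and 35.9 normalized counts in L192P and 46.4, 52.0, 48.9 and 55.0 in WT. All 4 WT libraries lay above all 4 L192P libraries, and groups without overlap were found for 5.97% of all tested genes. Any such gene gets the smallest possible exact two-sided permutation p, 0.0286, so this p only restates that the groups did not overlap. The log2 fold change of -0.46 (SE 0.26) did not pass the test over all genes (DESeq2 adjusted p = 0.609, edgeR 0.487). An exon of Eftud2 overlaps Higd1b on the opposite strand, and whether reads were counted by strand is not given in the sources used here. Anpep (chromosome 7, 79471551 to 79510807) had 33.6, 60.3, 78.4 and 40.7 normalized counts in L192P and 23.7, 47.5, 29.3 and 42.1 in WT. Those ranges overlapped, with L192P replicate 3 the highest (log2 fold change 0.56, SE 0.32, DESeq2 adjusted p = 0.627). Pdgfrb, Notch3, Rgs5 and Abcc9 had estimates of 0.05, 0.01, 0.09 and -0.21, so pericyte genes lay on both sides of 0. The median of the 7 was 0.01.

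Smooth muscle genes comprised Acta2 (smooth muscle actin), Tagln (transgelin) and Myh11 (smooth muscle myosin). All 3 had counts in every library, but Tagln (2.31 normalized counts per kilobase) and Myh11 (4.19) were among the lowest of the vessel genes. Acta2 (chromosome 19, 34217737 to 34232990) had 75.7, 102.4, 204.1 and 97.0 normalized counts in L192P and 80.1, 109.0, 70.6 and 97.2 in WT. L192P replicate 3 was the highest, and the other 3 L192P libraries lay within the WT range. The log2 fold change was 0.42 (SE 0.27, DESeq2 adjusted p = 0.706) with that library and 0.03 without it. L192P replicate 3 was also the highest of the 8 for Tagln and Myh11, and the opposite strand holds exons of Stambpl1 at Acta2 and of Pcsk7 at Tagln. The estimate for Myh11 was -0.26 (SE 0.32), opposite in sign to that for Acta2. In all, 14 of the 33 genes overlap an exon of another gene on the opposite strand.

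The mean level of each class was compared across libraries as the average of log2(normalized count + 1) minus the mean of each gene. For the 23 endothelial genes it was -0.75, 0.14, 0.44 and 0.40 in L192P replicates 1 to 4 and -0.47, 0.22, -0.19 and 0.21 in WT. For the 7 pericyte genes it was -0.62, 0.22, 0.32 and 0.05 in L192P and -0.42, 0.30, -0.01 and 0.16 in WT. Both classes were thus lowest in replicate 1 of each genotype, and the genotypes overlapped. The 3 smooth muscle genes followed another order, with -0.55, -0.45, 0.94 and 0.03 in L192P and -0.05, 0.42, -0.02 and -0.32 in WT. This mean gives Tagln, which did not pass the filter on low counts, the same weight as Acta2 and Myh11. The summed normalized counts of the 3 genes had a different order. They were 99.03, 121.8, 257.1 and 136.6 in L192P and 114.7, 152, 113 and 134.6 in WT. Markers of astrocytes (-0.38 and -0.30 in replicate 1 of L192P and WT), oligodendrocytes (-0.26 and -0.26) and microglia (-0.47 and -0.30) were also lowest in the replicate 1 libraries, whereas the cortical neuron markers were at 0.00 and 0.01 there. The part of tissue composition in the differences between libraries was not tested.

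**Figure D3:**
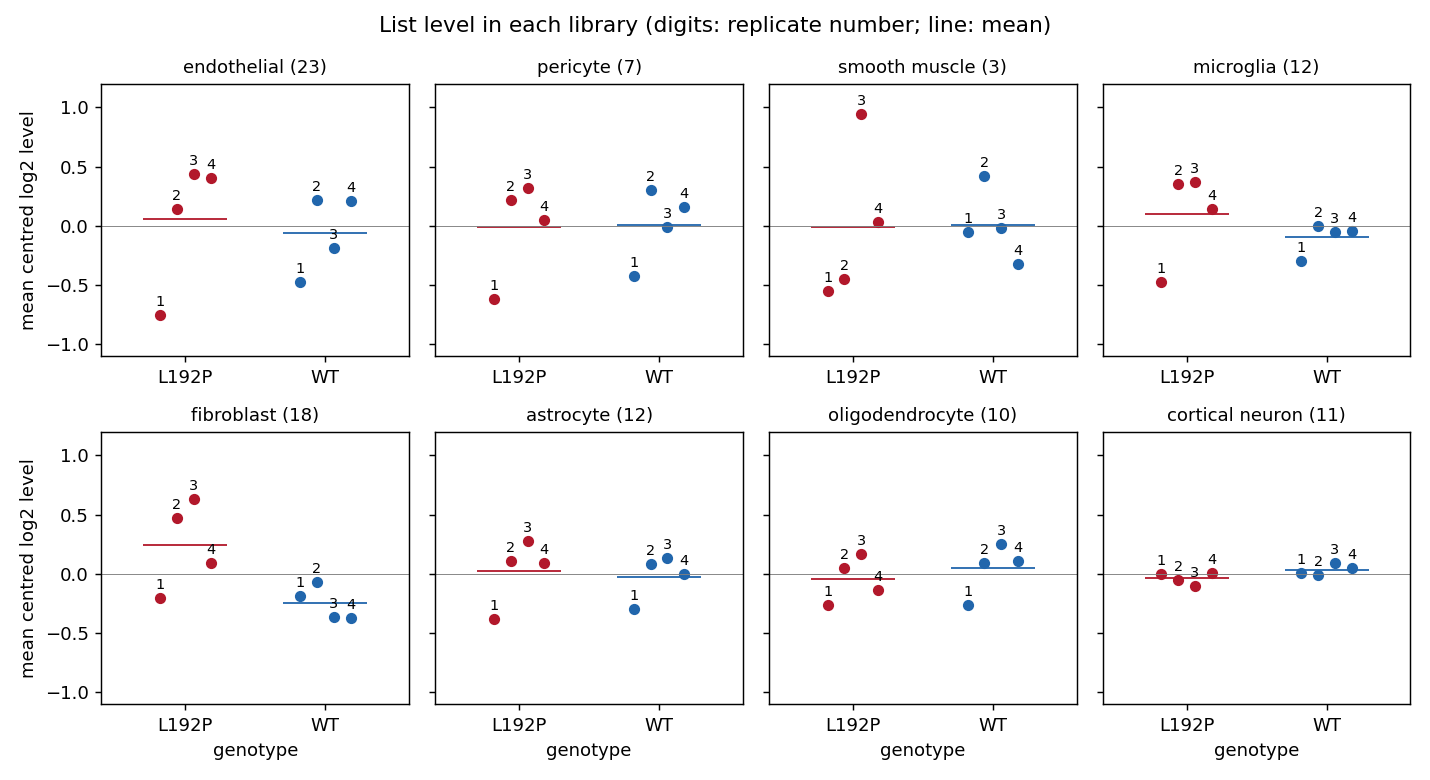
Mean centred log2 level (y axis, log2 of normalized count plus 1) of vessel gene classes and of marker lists of other cells, by genotype (x axis), with the number of genes in parentheses. Points are libraries with their replicate number and lines are means. Replicate 1 is the lowest point of both genotypes for endothelial, pericyte, astrocyte and microglia genes, and neuron markers stay within -0.10 to 0.09.

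Other genes of the same cells and pathways were taken from lists written by known role, again with earlier results of these data known. Counts with an unadjusted p under 0.05 have no share of all tested genes beside them, so they cannot be read as an excess or a lack. Of 26 further endothelial identity genes DESeq2 called 0, with 20 estimates above 0, a median of 0.23 and 5 with an unadjusted p under 0.05. With edgeR 0 were called as well. Podxl (podocalyxin) had the smallest p, with 246.6, 274.3, 370.1 and 348.6 normalized counts in L192P and 206.7, 240.6, 217.3 and 228.3 in WT. The groups did not overlap, and the DESeq2 adjusted p was 0.0657 (log2 fold change 0.47, SE 0.14), 0.0494 with the replicate block and 0.0218 in the 6 libraries without replicate 1. Among the 12 further junction genes 0 were called (median 0.09, 1 with an unadjusted p under 0.05, 0 with edgeR), and Ctnnd1 (p120 catenin) came closest at -0.31 (SE 0.11, DESeq2 adjusted p = 0.148). For 22 genes of Wnt and norrin signalling, which sets up the barrier, 0 were called, 2 had an unadjusted p under 0.05 and the median was 0.05. For 15 basement membrane genes, 0 were called, 0 had an unadjusted p under 0.05 and the median was 0.07. The 14 tested arterial genes had 0 calls and 13 estimates above 0 (median 0.12, 1 with an unadjusted p under 0.05). The 11 tested venous and activated endothelial genes had 0 calls and a median of 0.06, with 4 under an unadjusted 0.05, and edgeR called 0 in each of these 4 lists. Nr2f2, which specifies veins and is also made by neurons, was at 0.40 (DESeq2 adjusted p = 0.229, 0.0118 with the block and 0.046 in the 6 libraries).

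Egfl7, an endothelial secreted protein whose intron holds miR-126a, is the only gene among the vessel lists that is shown with its miRNA, since Argonaute 2 is the carrier of miRNAs. The mature miR-126a-3p (RefSeq, GRCm38.p6, chr2:26591402-26591423, plus strand, 22 bases) is written with its seed, bases 2 to 8, in capitals.
mmu-miR-126a-3p: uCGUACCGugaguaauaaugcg
Egfl7 had 313.0, 424.5, 441.6 and 418.1 normalized counts in L192P and 382.5, 497.7, 358.5 and 399.2 in WT. The ranges overlapped, and the log2 fold change was -0.04 (SE 0.14, DESeq2 adjusted p = 0.984). The miRNA itself was not measured in these mRNA libraries.

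Among ligands of angiogenesis DESeq2 called Vegfa, lower in L192P, and among their receptors Nrp2, higher in L192P. Over all tested genes 1.36% were called. Vegfa, the main growth factor for endothelium, is made in cortex by neurons and glia and not mainly by vessels. It had 1303, 1154, 1110 and 1273 normalized counts in L192P and 1587, 1726, 1435 and 1528 in WT (1210 ± 92.7 against 1569 ± 122.1, SD, n = 4). All L192P libraries lay below all WT libraries, and the log2 fold change was -0.38 (SE 0.08, DESeq2 adjusted p = 0.00138). An exact permutation test gave p = 0.0286, as it does for any gene whose groups do not overlap. It was called under 15 of 17 alternatives, the exceptions being edgeR (adjusted p = 0.0595) and limma-voom (0.0659). It was 1 of 18 tested ligands called; the estimates of its receptors Flt1 and Kdr were 0.15 and 0.50. Apelin (Apln), a peptide for the receptor Aplnr, is named after its values were seen. It had 442.8, 645.2, 562.7 and 657.6 normalized counts in L192P and 557.3, 911.7, 813.6 and 988.0 in WT, lower in L192P in 4 of 4 same-numbered pairs. Its ranges overlapped through the replicate 1 libraries. The DESeq2 adjusted p was 0.0933 (log2 fold change -0.50, SE 0.16) over all libraries, 1.44e-05 with the replicate block and 5.31e-05 without replicate 1.

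Nrp2, neuropilin-2, is a co-receptor for VEGF and semaphorins in veins, lymphatics and also neurons. It had 844.6, 907.0, 973.1 and 999.0 normalized counts in L192P and 803.2, 701.0, 786.5 and 690.7 in WT. The groups did not overlap, and it rose by 0.32 on the log2 scale (SE 0.09, DESeq2 adjusted p = 0.023), as 1 of 16 tested receptors. The call was lost with edgeR, with limma-voom and when any 1 library numbered 2 to 4 was left out (largest adjusted p without 1 library 0.194, for WT replicate 4). Of 19 tested barrier transporters, 1 was called, beside 1.36% of all tested genes. This was Slc22a8 (organic anion transporter 3, which is also abundant in choroid plexus), with 182.2, 287.9, 305.5 and 277.9 normalized counts in L192P and 173.0, 188.1, 155.3 and 155.7 in WT. L192P replicate 1 lay within the WT range and the other 3 above it (log2 fold change 0.64, SE 0.16, DESeq2 adjusted p = 0.0132). Leaving out L192P replicate 2, 3 or 4, or WT replicate 3 or 4, ended its call, with adjusted p-values of 0.0787 to 0.122, as did edgeR (0.129) and limma-voom (0.207). The choroid plexus markers summed to 17170 to 39404 normalized counts in the L192P libraries and to 15005 to 33828 in the WT libraries, with 0 of 13 called, and their part in the Slc22a8 result was not tested.

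**Figure D4:**
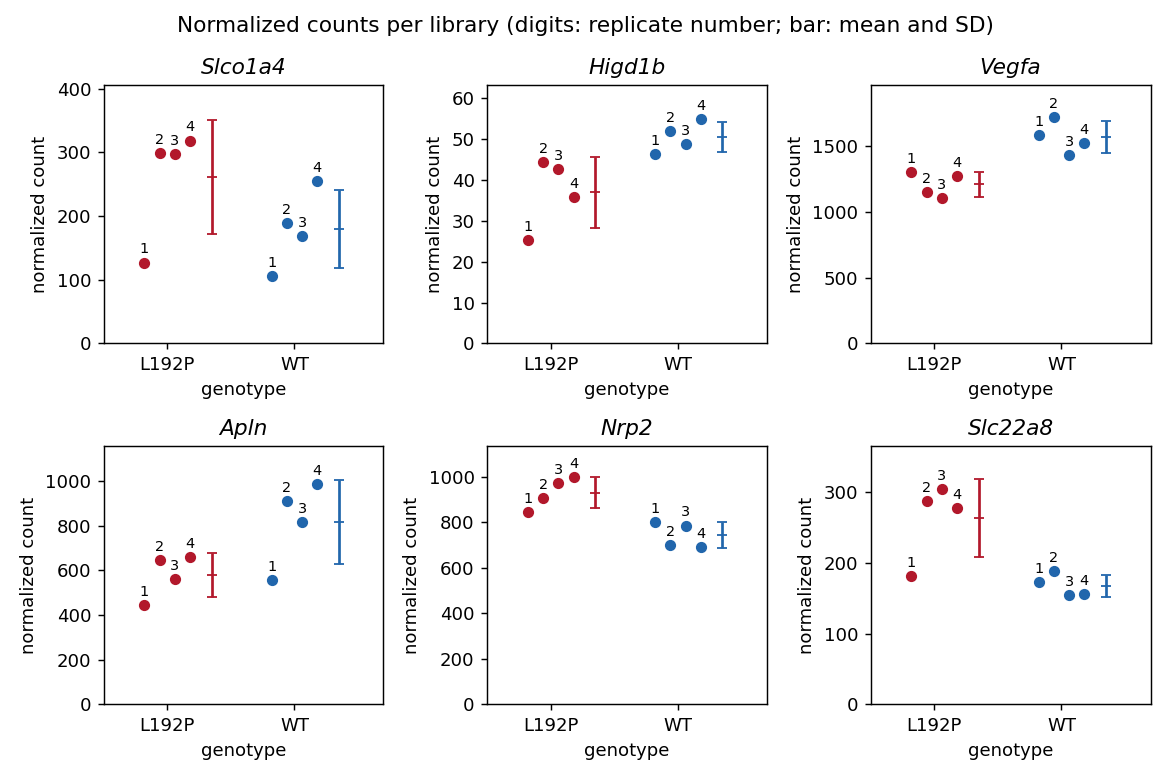
Normalized counts (y axis, from 0) of 6 genes in the L192P and WT libraries (x axis). Points are libraries with their replicate number, and bars at the side are the mean and SD of 4. Higd1b, Vegfa and Nrp2 have groups that do not overlap, of which Vegfa and Nrp2 were called, whereas Slco1a4, Apln and Slc22a8 overlap through the replicate 1 libraries.

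Among 25 further pericyte genes 2 were called, both higher in L192P (median of the list -0.02), and among 20 tested smooth muscle genes 1 was called (median 0.01). The share called over all tested genes was 1.36%. The pericyte list calls were Zic1 (0.92, SE 0.23, DESeq2 adjusted p = 0.0124) and Foxc1 (0.60, SE 0.16, DESeq2 adjusted p = 0.0255). Both are transcription factors that meningeal cells also express. Zic1 was not called when L192P replicate 1, L192P replicate 2 or WT replicate 2 was left out (adjusted p 0.0644, 0.109 and 0.132). That for Foxc1 was lost with the replicate block (0.0552), with edgeR (0.138), with limma-voom (0.126) and when 1 of the L192P libraries 2 to 4, or of the WT libraries 1 to 3, was left out (0.0505 to 0.226). In the smooth muscle list the call was Sncg (gamma-synuclein, which neurons also express), with 108.4, 109.2, 156.8 and 113.8 normalized counts in L192P and 54.6, 49.7, 68.4 and 25.8 in WT. It rose by 1.29 on the log2 scale (SE 0.24, DESeq2 adjusted p = 6.88e-05), was called under all 17 alternatives, and overlaps an exon of the endothelial gene Mmrn2 on the opposite strand.

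Markers of meningeal and perivascular fibroblasts, the cells of the outer vessel sheath and of the meninges, included genes that were higher in L192P. Of 18, 5 were called (27.8%, against 1.36% of all tested genes), all higher, 17 had estimates above 0 and the median was 0.49. They were Aldh1a2 (retinaldehyde dehydrogenase, 0.80, SE 0.18, DESeq2 adjusted p = 0.00195), Slc6a13 (the GABA transporter GAT2, 0.81, adjusted p = 0.0229), Slc22a6 (organic anion transporter 1, 0.64, adjusted p = 0.0203), Crabp2 (a retinoic acid binding protein, 0.72, adjusted p = 0.0449) and Foxc2 (a transcription factor, 0.96, adjusted p = 0.0489). Aldh1a2 had 290.5, 412.0, 553.4 and 330.6 normalized counts in L192P and 244.0, 244.0, 236.8 and 180.3 in WT, so its groups did not overlap. With edgeR 0 of the 18 were called (12 had an unadjusted DESeq2 p under 0.05, for which no share of all tested genes is given here). The replicate block called 4 (beside 4.25% of all tested genes), and the 6 libraries without replicate 1 called 8 (beside 3.46%). Leaving out replicate 2 or 3 of L192P, or replicate 3 or 4 of WT, ended the calls for Slc6a13, Slc22a6, Crabp2 and Foxc2, with adjusted p-values up to 0.357, while Aldh1a2 lost its call with edgeR (0.096) and limma-voom (0.143) alone. Foxc2 also lost its call with TMM factors (adjusted p = 0.0513), without independent filtering (0.085) and in the 6 libraries (0.0692). Crabp2 lost its call without independent filtering (0.078) and with the block (0.076). The summed level of the list was 6304 to 10683 normalized counts in L192P and 6565 to 8895 in WT, and no marker was at 0 in all libraries. Its part in the values of the pericyte and smooth muscle genes was not tested. The mural genes Pdgfrb and Acta2, with 0.05 and 0.42, were not called.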

How the data were processed

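mRNA of 8 cortex libraries (4 L192P, 4 WT) was sequenced as stranded libraries. For this step the paper names Eurofins Genomics or a University of Regensburg institute, and does not say which site sequenced which library. The authors aligned the reads to GRCm39 with STAR and used featureCounts to tally reads per gene. The deposited table holds these raw counts, 1 column a library and no pooled column. The submitters' processing notes name STAR 2.7.9a, featureCounts 1.5.1 and DESeq2 1.40.2. The strand setting of the counting and the Ensembl release are not given in the sources used here, so exons that overlap on opposite strands may share reads. A second deposited table holds normalized signal, which the authors made by dividing each count by a DESeq2 size factor. It differed from values recomputed here by at most 3.49e-10 and was not used further.

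DESeq2 1.42.0 in R 4.3.3 was fitted to the counts with a single term for genotype, median-of-ratios factors, Cook filtering as by default and the independent filter tuned to 0.05, following the tool and threshold of the study. Calls were made where the Benjamini-Hochberg adjusted p over all genes was below 0.05. For counts of genes with an unadjusted p under 0.05, the share of all tested genes is not given here. Among 32676 genes with counts, the independent filter removed 14037 and the Cook filter 12. Fold changes are unshrunken, and intervals are 1.96 standard errors either way. Single genes were also tested by exact two-sided permutation of normalized counts. Alternatives were edgeR 4.0.16 (quasi-likelihood) and limma 3.58.1 (voom), both after edgeR's filterByExpr, TMM or total-count factors, a low-count filter (10 or more counts in 4 or more libraries), no independent filtering, no Cook filter, the replicate number as a block, the 6 libraries without replicate 1, and leaving out each library. The programs were tested on simulated data. No pair of libraries of 1 genotype agreed within sampling noise (chi-square per degree of freedom 5.98 to 25).

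For 13422 genes with a mean of 50 or more normalized counts, deviations from the genotype mean correlated at 0.628, 0.381, 0.233 and 0.327 between same-numbered libraries, and at -0.375 to 0.144 otherwise. The pairing rests on these values, since the labels do not say what the numbers mark, and the blocked value is given where it changed a call.

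The vessel genes, the related lists and the promoter motif were chosen with earlier results of these data known. Values in every library are given for the gene with the smallest p and the one with the highest level per kilobase in each of 6 role classes and for the 3 with the largest estimate in each direction. From each related list the called genes are named, otherwise the gene with the smallest p. Some genes of the lists are not reported here. Slco1a4, Cldn5, Apln, Egfl7, the neuron markers Neurod6, Tbr1, Slc17a7 and Camk2a, and the GGAAGT motif were singled out after their values were seen. Of the related lists, 4 symbols had no row. Gene positions are from GENCODE M39 on GRCm39, which holds 98.8% of the identifiers, and sequences from RefSeq tables on GRCm38.p6.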

Additional observations from a re-analysis of the deposited data

Results flagged for a closer look

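In each genotype the gap between the extreme library and its neighbour was set against the range of the 4 libraries, for the genes named in the text. Of 130 groups screened 6 exceeded Dixon's 95% critical value, and chance flags about 1 in 20 groups, or 6.5 of them. L192P replicate 1 was the low library of L192P for Tjp1 (1502 normalized counts against 1851 to 1890, a gap of 0.898 of the range), Slco1a4 (127.1 against 297.5 to 318.6, 0.89) and the pericyte gene Rgs5 (814.7 against 1432 to 1557, 0.831). L192P replicate 3 was the high library for Agt (616.9 against 278.8 to 303.1, 0.928), an astrocyte gene, and for Sncg (156.8 against 108.4 to 113.8, 0.888). WT replicate 4 was the low WT library for Aldh1a2 (180.3 against 236.8 to 244.0, 0.887).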

How the results depend on the processing

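No vessel gene was called by DESeq2 with TMM or total-count factors, the low-count filter, no independent filtering or no Cook filter, nor by edgeR or limma-voom. Slco1a4, 1 gene, was called with the replicate block, in the 6 libraries without replicate 1 and without L192P replicate 1, and leaving out 1 library gave 0 to 1 vessel genes. Over all genes the 253 calls became 500 in those 6 libraries, 533 with the replicate block, 53 with edgeR and 45 with limma-voom, and 112 to 496 when 1 library was left out. The 12 called genes of the related lists became 31, 20, 2 and 2 in the same settings, and 3 to 22 when 1 library was left out. The block ended the calls for Foxc1 (0.0552) and Crabp2 (0.076) and made those for Podxl, Apln, Agt, Cx3cr1 and Nr2f2. It also called Slco1a4 and the neuron markers Neurod6, Tbr1 and Slc17a7. No other call changed among the named genes that had an adjusted p in that fit. Foxc2 had none there, and the cause of these shifts was not tested. Among estimates whose sign changed, the 6 libraries without replicate 1 gave 0.0679 for Ocln, 0.126 for Ramp2, 0.00126 for Bsg, 0.121 for Itm2a, 0.0148 for Vtn, -0.0186 for Notch3, 0.249 for Tagln and 0.0216 for Egfl7. Total-count factors gave 0.0169 for Ramp2, 0.00263 for Bsg and 0.00544 for Tagln. TMM factors gave -0.0011 for Notch3, limma-voom gave -0.121 for Pecam1, -0.0695 for Flt1 and -0.0346 for Notch3, and the replicate block gave -0.0284 for Pecam1. Leaving out 1 library moved the log2 fold change over 0 with ranges of -0.143 to 0.16 for Ocln, -0.214 to 0.492 for Pecam1, -0.0705 to 0.556 for Emcn, -0.112 to 0.446 for Flt1, -0.156 to 0.129 for Ramp2, -0.178 to 0.00109 for Slc2a1, -0.166 to 0.0757 for Slco1c1, -0.0895 to 0.0216 for Abcg2, -0.0542 to 0.0319 for Bsg, -0.186 to 0.142 for Itm2a, -0.0891 to 0.204 for Pdgfrb, -0.0361 to 0.256 for Rgs5, -0.208 to 0.174 for Vtn, -0.126 to 0.205 for Notch3, -0.354 to 0.0357 for Abcc9, -0.913 to 0.488 for Tagln and -0.103 to 0.0669 for Egfl7. None of these was called in any setting. The depth limits what can be said of Tagln, Myh11 and other genes with few counts.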

Other observations

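Immune, glial and blood markers were measured beside the vessel genes. All 12 microglia markers had log2 fold changes above 0 (median 0.23), and DESeq2 called 0 (2 with an unadjusted p under 0.05, 0 with edgeR). In the 6 libraries without replicate 1, 4 were called, beside 3.46% of all tested genes. The chemokine receptor Cx3cr1 was at 0.42 there (DESeq2 adjusted p = 0.000608, against 0.409 over all 8). Of 10 perivascular macrophage markers 0 were called (median 0.20, 0 with an unadjusted p under 0.05 and 0 with edgeR), and the one with the smallest p, the chemokine Pf4, was at 0.52 (SE 0.37). Of 5 tested erythroid markers 0 were called over all libraries (median 0.25, 0 with an unadjusted p under 0.05 and 0 with edgeR), and 2 were called in the 6 libraries. Alas2, the erythroid enzyme of heme synthesis, was at 0.45 (DESeq2 adjusted p = 0.661). Of 12 astrocyte markers 0 were called (1 with an unadjusted p under 0.05, 0 with edgeR), and Agt, angiotensinogen, was at 0.91 (SE 0.32, DESeq2 adjusted p = 0.159, and 8.89e-06 with the replicate block). Of 10 oligodendrocyte markers 0 were called, 0 had an unadjusted p under 0.05, edgeR called 0 and 9 estimates were below 0 (median -0.11, Mog at -0.12).

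Of 11 cortical neuron markers 8 had estimates below 0 (median -0.10), 6 had an unadjusted p under 0.05, and 1 was called, against 0 with edgeR, 4 with the replicate block and 4 in the 6 libraries without replicate 1. Of all tested genes 1.36% were called over all libraries, 4.25% with the block and 3.46% in those 6. The block called Neurod6 (-0.31), Tbr1 (-0.25) and Slc17a7 (-0.13), markers of excitatory neurons with estimates below 0, beside Gad2, and the calls in the 6 libraries included Camk2a (-0.19) and Slc17a7 (-0.18) beside Gad2. The 1 called over all libraries was Gad2, the GABA-synthesizing enzyme, which rose by 0.34 on the log2 scale (SE 0.09, DESeq2 adjusted p = 0.0235), with 7107, 7233, 6849 and 7730 normalized counts in L192P and 6717, 4722, 5841 and 5520 in WT. Leaving out L192P replicate 2 or 4, or 1 of the WT libraries 2 to 4, ended the call, with adjusted p-values of 0.0768 to 0.146, as did edgeR (0.155) and limma-voom (0.143). Of 17 hypoxia response genes 15 had estimates below 0 (median -0.09), and Vegfa was the 1 called. Of 12 immediate early genes, which neuronal activity and handling induce, 11 were below 0 (median -0.21) and 0 were called (1 with an unadjusted p under 0.05, 0 with edgeR). Egr1 was at -0.31 (SE 0.12, DESeq2 adjusted p = 0.269) over all libraries and at -0.49 (6.15e-07) without replicate 1. Choroid plexus markers had a median of 0.06, with Otx2 at 0.48 (SE 0.28), and 7 tested ependymal markers a median of 0.15, with Tmem212 at 0.97 (SE 0.46). For the 5 tested host genes of vessel miRNAs the median was -0.04, with Mir99ahg at 0.31 (SE 0.22). DESeq2 called 0 in each of these 3 lists, edgeR called 0, and 1 ependymal gene had an unadjusted p under 0.05. Bmx, an arterial kinase with few counts, was at 1.66 (SE 0.61, DESeq2 adjusted p = 0.192), and Agrn, agrin of the basement membrane, at -0.15 (SE 0.08, DESeq2 adjusted p = 0.539).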
